A study of Homo sapiens with 16 samples.

Results

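The 42 J-domain co-chaperone genes described here are all protein-coding genes in the count files whose symbol is DNAJA, DNAJB or DNAJC followed by a number only. They are 42 of the 58735 genes counted, and 4 belong to class A, 12 to class B and 26 to class C. The libraries came from 2 human triple-negative breast cancer lines, MDA-MB-231 and SUM159PT, both labelled WT and both collected 48 h after lipid transfection of a single-guide RNA. The guide was directed at YES1, a SRC-family tyrosine kinase gene (sgYES1), or was non-targeting (sgNTS). The 4 groups of 4 libraries are MDA-MB-231 sgYES1, MDA-MB-231 sgNTS, SUM159PT sgYES1 and SUM159PT sgNTS. The submitters describe the replicates as technical, so a p-value here measures only the spread between these libraries. The labels do not say where the nuclease that pairs with the guide came from, nor whether the cells were a clone.

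J-domain proteins are the obligate partners of HSP70 chaperones. A J-domain protein delivers an unfolded client to HSP70 and, through the histidine-proline-aspartate motif of its J domain, triggers the hydrolysis of the ATP that HSP70 holds, which locks the client in place. Nucleotide exchange factors then reset HSP70. Class A proteins have a glycine- and phenylalanine-rich stretch and a zinc-binding region beside the J domain, class B proteins have that stretch without the zinc-binding region, and class C proteins share the J domain alone and are tied to particular tasks and compartments. In the cytosol and nucleus the heat shock factor HSF1 drives the stress-inducible members, and in the endoplasmic reticulum (ER) the unfolded protein response does so.

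The libraries held 17.2 to 25.1 M counts in MDA-MB-231 and 14.4 to 20.9 M counts in SUM159PT, with M for 1000000. Levels are CPM, the counts of a gene per 1000000 counts of its library, scaled by TMM, the trimmed mean of M-values, over all 16 libraries. A gene is called where the adjusted p of edgeR's quasi-likelihood test (two-sided, Benjamini-Hochberg over all genes tested) is under 0.05, and every adjusted p below is from that test. YES1 was lower under its guide in both lines, with 42.7 ± 1.095 CPM in sgYES1 and 108 ± 3.07 CPM in sgNTS libraries of MDA-MB-231 and 39.7 ± 0.754 CPM in sgYES1 and 94.2 ± 3.21 CPM in sgNTS libraries of SUM159PT (SD, n = 4 each). PGR had no count in any library, ESR1 averaged at most 0.263 CPM in any group, while ERBB2 averaged 96.2 to 109.6 CPM. Of the other luminal markers, GATA3 averaged 8.84 to 18.6 CPM and FOXA1 0.171 to 5.54 CPM over the groups. Leukocyte markers summed to at most 0.862 CPM and endothelial markers to at most 3.82 CPM in any library. MDA-MB-231 sgNTS replicate 4 differed most from its group, by a chi-square of 9.38 to 29.1 per degree of freedom against its 3 fellows, with every other pair of replicates at 2.33 to 6.81. SUM159PT sgNTS replicate 2 stood apart from its group in HSP70 genes and in genes of the unfolded protein response and of nucleotide exchange, as given below.

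Under sgYES1, 7 of 11 cytosolic members tested rose in SUM159PT and none was called lower. Of 37 members tested, 12 were called higher and 6 lower, which is 48.6% of them beside 39.4% of all 14479 genes tested. The members called higher were 32.4% of the 37, against 19.6% of all genes, and those called lower were 16.2%, against 19.7% of all genes. Without sgNTS replicate 2, SUM159PT had 11 higher and 5 lower. In MDA-MB-231 fewer members were called, with 8 of 38 higher and 4 lower, or 31.6% beside 42.8% of all 15427 genes tested. The members called higher were 21.1% against 20.8% of all genes, a share near the background, and those called lower were 10.5% against 22.1%. Without sgNTS replicate 4, MDA-MB-231 had 8 higher and 3 lower. The groups did not overlap for 17 members (45.9%) in SUM159PT, against 35.0% of all genes, and for 14 members (36.8%) in MDA-MB-231, against 39.2% of all genes. The median log2 fold change over the members tested was 0.11 in SUM159PT and 0.03 in MDA-MB-231, beside medians over all genes tested of -0.01 in SUM159PT and 0.01 in MDA-MB-231.

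**Figure D1:**
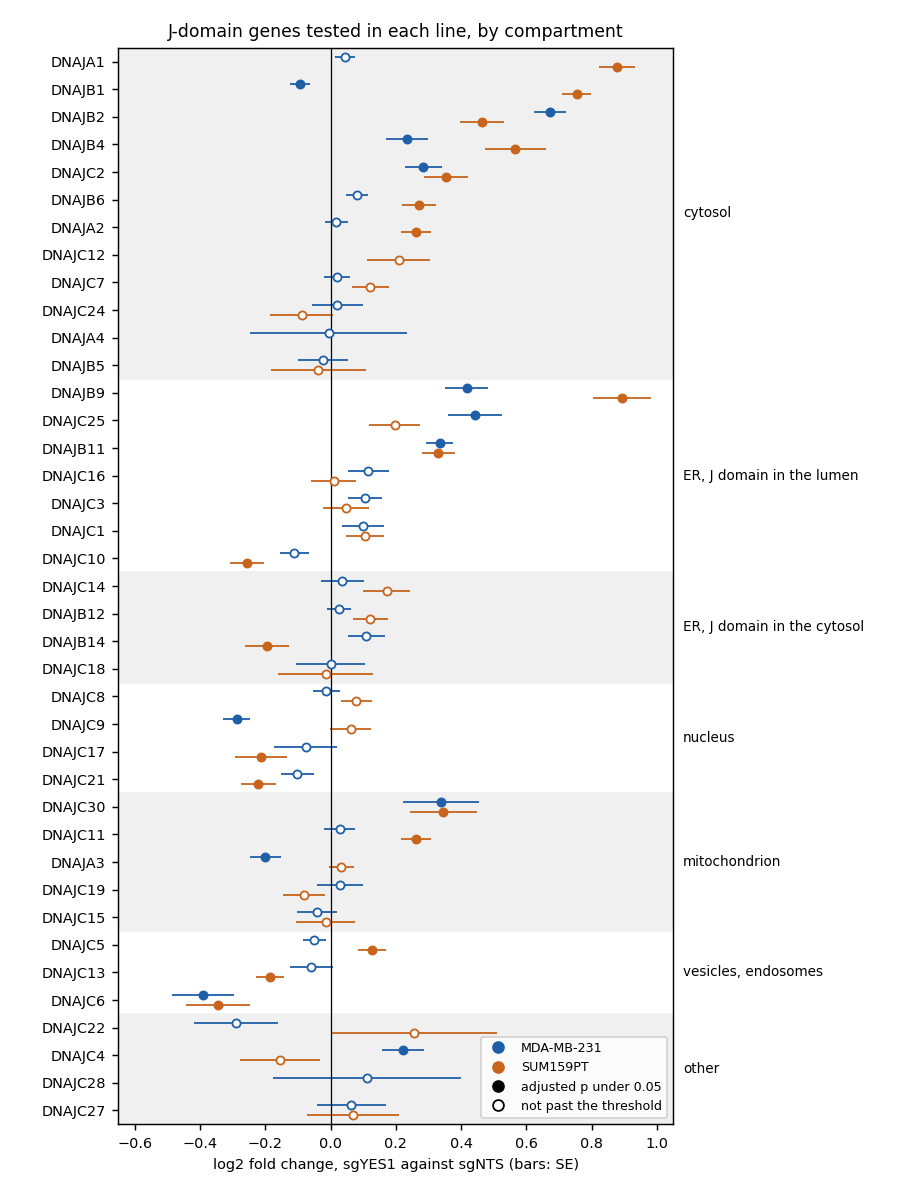
Log2 fold change of each tested J-domain gene, sgYES1 over sgNTS, with bars for the SE, in MDA-MB-231 and SUM159PT. In SUM159PT, DNAJA1 (0.88) and DNAJB1 (0.75) stand far to the right of their MDA-MB-231 values (0.04 and -0.09), while DNAJB2, DNAJB9 and DNAJB11 lie to the right of zero in both lines.

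The general cytosolic chaperones DNAJA1 and DNAJB1 rose in SUM159PT. DNAJA1 (hg38 chromosome 9, 33025211 to 33039907, plus strand) encodes a farnesylated class A partner of the constitutive chaperone HSC70. In SUM159PT it had 217, 203, 230.5 and 210.2 CPM in sgYES1 replicates 1 to 4, against 108, 133, 113 and 118 CPM in sgNTS replicates 1 to 4. All sgYES1 libraries lay above all sgNTS libraries, and DNAJA1 rose with a log2 fold change of 0.88 ± 0.06 (SE), adjusted p = 1.28e-10. In MDA-MB-231 it had 315, 315, 313 and 322 CPM in sgYES1 replicates 1 to 4, against 308, 303, 304 and 309 CPM in sgNTS replicates 1 to 4. These groups did not overlap either, but the difference was small and was not called (0.04 ± 0.03 (SE), adjusted p = 0.249). With library totals as the only scaling, DNAJA1 in MDA-MB-231 was called, at 0.09 and an adjusted p of 0.0244.

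DNAJB1 (hg38 chromosome 19, 14514770 to 14529770, minus strand) encodes the main heat-inducible HSP40. Its SUM159PT values were 182, 186, 183 and 189 CPM in sgYES1 replicates 1 to 4, against 106, 115, 103 and 116 CPM in sgNTS replicates 1 to 4. The sgYES1 libraries were all above the sgNTS libraries, and DNAJB1 rose by a log2 fold change of 0.75 ± 0.05 (SE), adjusted p = 5.27e-11. Its MDA-MB-231 values were 249, 257, 245 and 252 CPM in sgYES1 replicates 1 to 4, against 264, 263, 271 and 269 CPM in sgNTS replicates 1 to 4. There the sgYES1 libraries were all below the sgNTS libraries, with a log2 fold change of -0.09 ± 0.03 (SE), adjusted p = 0.0273. That small call was lost on library totals, with the replicate block, in the fit on all 16 libraries, and when sgNTS replicate 3 or 4, or sgYES1 replicate 1 or 3, was left out, with an adjusted p of 0.0584 to 0.243. Exons of DNAJB1 share 211 bases with TECR on the other strand, and TECR had log2 fold changes of -0.14 in SUM159PT and -0.18 in MDA-MB-231. Whether the counting used strand is not stated in the labels or notes, so reads in bases shared by such a pair cannot be told apart, here and for the overlaps given below.

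The promoters of these 2 genes and of DNAJB6 are shown, of the 8 members with a match, because these genes are described above or hold the long motif of the heat shock element, the site that HSF1 is known to bind as inverted repeats of GAA. Windows are RefSeq, build GRCh38.p14, from 250 bases before to 50 after a transcript start, written 5′ to 3′ on the gene's strand, with matches in capitals. The long motif searched was GAA, 2 bases of any kind, TTC, 2 bases of any kind and GAA, or its reverse complement, and the short motif was GAA, 2 bases and TTC, or TTC, 2 bases and GAA.
DNAJA1 chr9:33025023-33025322, plus strand: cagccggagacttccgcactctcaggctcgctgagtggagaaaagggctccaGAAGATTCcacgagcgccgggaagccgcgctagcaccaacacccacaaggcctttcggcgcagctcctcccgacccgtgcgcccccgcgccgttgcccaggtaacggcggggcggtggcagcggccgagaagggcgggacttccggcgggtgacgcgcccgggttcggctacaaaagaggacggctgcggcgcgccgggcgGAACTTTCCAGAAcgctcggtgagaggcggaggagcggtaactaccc
DNAJB1 chr19:14518348-14518647, minus strand: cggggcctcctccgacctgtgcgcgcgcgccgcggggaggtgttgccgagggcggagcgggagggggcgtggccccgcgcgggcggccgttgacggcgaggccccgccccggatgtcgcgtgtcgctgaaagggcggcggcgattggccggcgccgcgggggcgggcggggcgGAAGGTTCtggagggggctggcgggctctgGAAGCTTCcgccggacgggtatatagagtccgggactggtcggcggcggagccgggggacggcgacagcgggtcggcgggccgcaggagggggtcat
DNAJB6 chr7:157336754-157337053, plus strand: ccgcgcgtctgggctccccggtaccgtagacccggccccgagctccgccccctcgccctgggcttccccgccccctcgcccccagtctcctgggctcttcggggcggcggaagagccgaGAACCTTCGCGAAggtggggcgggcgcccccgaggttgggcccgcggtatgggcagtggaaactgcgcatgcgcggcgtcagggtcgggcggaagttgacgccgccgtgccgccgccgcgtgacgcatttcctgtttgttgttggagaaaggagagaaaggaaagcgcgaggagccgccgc
DNAJA1 holds the long motif, as GAACTTTCCAGAA, 3 bases after the start, and a short one, GAAGATTC, 198 bases before it. The DNAJB1 window shown holds 2 short motifs, GAAGGTTC and GAAGCTTC, 77 and 47 bases before its start. Another DNAJB1 window, chr19:14517888-14518187, is not shown and holds GAAGCTTC 1 base after its start. DNAJB6 holds the long motif as GAACCTTCGCGAA, 131 bases before its start. RefSeq windows matched 39 of the 42 members by symbol, with 51 windows among 35116. The long motif, searched on both strands, was in 2 of the 51 windows (3.92%) and in 0.49% of all windows. The short motif, which the long one contains and which was added after the long one had been counted, was in 9 windows (17.6%), against 13.5% of all windows. Windows of DNAJA4, DNAJB4, DNAJB7, DNAJC6 and DNAJC15 held the short motif too; of these, DNAJB4 was called higher and DNAJC6 lower in both lines, and DNAJC15 was called in neither. The ER stress element, CCAAT and CCACG with 9 bases of any kind between them, searched on both strands, was in 0 of the 51 windows and in 0.0769% of all windows. These matches describe letters in the windows and show no binding.

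The other cytosolic members that rose included the class B proteins DNAJB2, DNAJB4 and DNAJB6. DNAJB2, which carries ubiquitin-interacting motifs and is known from neurons, rose in both lines. MDA-MB-231 had 66.6, 60.6, 61.5 and 62.9 CPM in sgYES1 replicates 1 to 4, against 42.2, 39.3, 38.1 and 37.8 CPM in sgNTS replicates 1 to 4, with no overlap of the groups (log2 fold change 0.67 ± 0.05 (SE), adjusted p = 1.47e-07). SUM159PT had 43.8, 51.9, 50.7 and 47.5 CPM in sgYES1 replicates 1 to 4, against 35.8, 33.7, 39.1 and 32.8 CPM in sgNTS replicates 1 to 4, again with no overlap (0.46 ± 0.07 (SE), adjusted p = 1.41e-05). DNAJB2 had the highest fold change of all members in MDA-MB-231. DNAJB4, an HSC70 co-chaperone related to DNAJB1, had 21.7, 16.2, 21.2 and 18.8 CPM in sgYES1 and 13.3, 14.2, 12.7 and 13.0 CPM in sgNTS replicates 1 to 4 of SUM159PT (0.57 ± 0.09 (SE), adjusted p = 5.52e-05). The MDA-MB-231 libraries gave 23.3, 24.1, 22.9 and 22.6 CPM in sgYES1 and 20.04, 18.7, 18.2 and 21.5 CPM in sgNTS replicates 1 to 4 (0.24 ± 0.06 (SE), adjusted p = 0.00842). The groups were apart in both lines, and the rise was called in both. DNAJB6, which keeps aggregation-prone polyglutamine proteins soluble, rose in SUM159PT (86.7 to 102 CPM in sgYES1 and 77.1 to 78.9 CPM in sgNTS libraries, log2 fold change 0.27 ± 0.05 (SE), adjusted p = 0.000258) and was not called in MDA-MB-231 (0.08 ± 0.03 (SE), adjusted p = 0.0632).

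DNAJA2, a class A refolding partner of HSC70, had 145, 129, 140.3 and 134 CPM in sgYES1 replicates 1 to 4, against 111, 115, 117 and 116 CPM in sgNTS replicates 1 to 4 of SUM159PT. Its groups did not overlap there, and its log2 fold change was 0.26 ± 0.05 (SE), adjusted p = 0.000107. In MDA-MB-231 it had 85.6, 84.6, 85.6 and 82.8 CPM in sgYES1 replicates 1 to 4, against 81.3, 84.4, 83.8 and 84.2 CPM in sgNTS replicates 1 to 4, with overlapping groups (0.02 ± 0.04 (SE), adjusted p = 0.725). DNAJC2, the ribosome-associated member that pairs with HSPA14, rose in both lines. It had 39.5, 43.8, 41.0 and 39.7 CPM in sgYES1 replicates 1 to 4, against 35.4, 35.0, 33.6 and 30.4 CPM in sgNTS replicates 1 to 4 of MDA-MB-231 (0.28 ± 0.06 (SE), adjusted p = 0.00113), and 67.0, 63.3, 68.2 and 54.1 CPM in sgYES1 replicates 1 to 4, against 51.1, 51.5, 49.0 and 47.3 CPM in sgNTS replicates 1 to 4 of SUM159PT (0.35 ± 0.07 (SE), adjusted p = 0.000233), with no overlap in either line. Its exons share 628 bases with PMPCB on the other strand, which had log2 fold changes of -0.06 in MDA-MB-231 and -0.16 in SUM159PT. Members of the cytosol that were tested and not called in either line were DNAJB5 (-0.04 in SUM159PT and -0.02 in MDA-MB-231), the HSP90- and HSP70-binding DNAJC7 (0.12 in SUM159PT and 0.02 in MDA-MB-231) and DNAJC24, which acts in diphthamide synthesis (-0.09 in SUM159PT and 0.02 in MDA-MB-231).

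**Figure D2:**
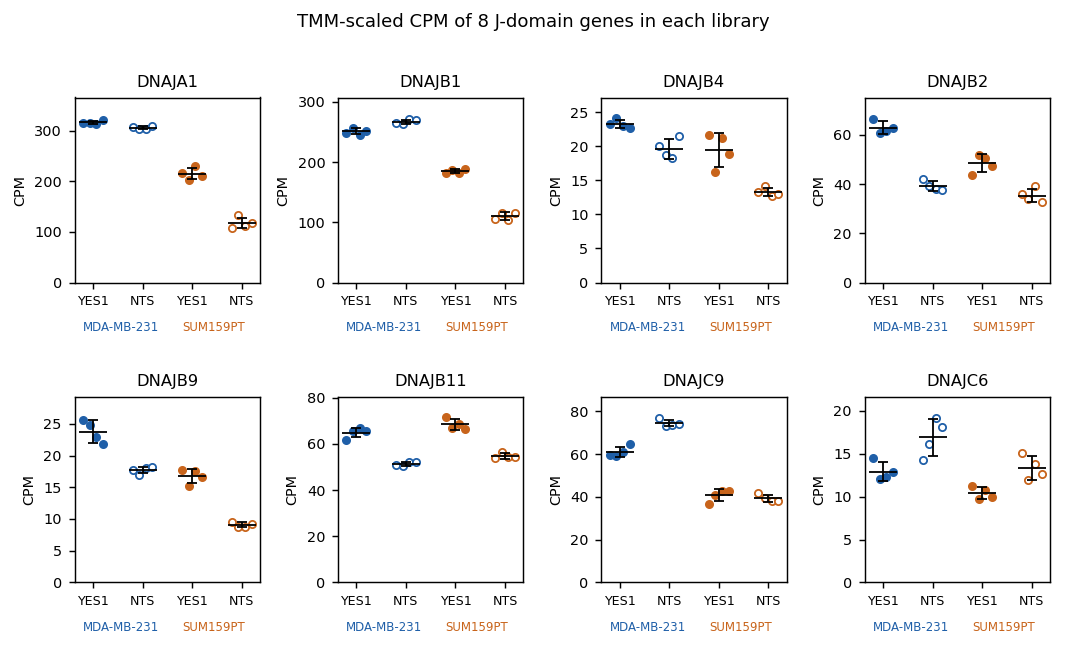
TMM-scaled CPM of J-domain genes in each library, sgYES1 (filled) left of sgNTS (open) in each line, with the mean and SD of 4 libraries. DNAJA1 in SUM159PT sits at 203 to 230.5 CPM in sgYES1 and 108 to 133 CPM in sgNTS libraries, while in MDA-MB-231 the 2 guides lie within 303 to 322 CPM.

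Among the 11 ER members, those that act in the lumen with the ER chaperone BiP (HSPA5) rose in part. DNAJB9, which recruits BiP to the stress sensor IRE1 and is itself a stress-induced gene, rose in both lines. The SUM159PT libraries gave 17.8, 15.2, 17.6 and 16.6 CPM in sgYES1 replicates 1 to 4, against 9.58, 8.75, 8.78 and 9.27 CPM in sgNTS replicates 1 to 4, the highest fold change of all members there (log2 0.89 ± 0.09 (SE), adjusted p = 1.29e-07). Its MDA-MB-231 values were 25.7, 24.8, 22.9 and 21.8 CPM in sgYES1 replicates 1 to 4, against 17.7, 17.0, 18.0 and 18.2 CPM in sgNTS replicates 1 to 4 (0.42 ± 0.07 (SE), adjusted p = 0.000153). Neither line had overlapping groups for DNAJB9. Its exons share 183 bases with THAP5 and 99 with PNPLA8 on the other strand. PNPLA8 had log2 fold changes of 0.31 in MDA-MB-231, the direction of DNAJB9, and 0.07 in SUM159PT. THAP5 had -0.04 in MDA-MB-231 and -0.06 in SUM159PT. DNAJB11, a soluble lumenal co-chaperone that binds unfolded chains, had 61.8, 65.7, 66.7 and 65.3 CPM in sgYES1 replicates 1 to 4, against 50.9, 50.4, 52.2 and 52.1 CPM in sgNTS replicates 1 to 4 of MDA-MB-231 (0.33 ± 0.04 (SE), adjusted p = 1.89e-05). In SUM159PT it had 71.8, 66.9, 68.7 and 66.3 CPM in sgYES1 replicates 1 to 4, against 53.9, 56.5, 54.1 and 54.4 CPM in sgNTS replicates 1 to 4 (0.33 ± 0.05 (SE), adjusted p = 2.59e-05). The difference of its effect between the lines was -0.02 ± 0.06 (SE), adjusted p = 0.903, 95% interval -0.14 to 0.11. Its exons share 381 bases with TBCCD1 on the other strand, which had log2 fold changes of -0.34 in MDA-MB-231 and -0.10 in SUM159PT.

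DNAJC25, an ER membrane member, was called higher in MDA-MB-231, where it had 19.3, 16.7, 16.3 and 15.95 CPM in sgYES1 replicates 1 to 4, against 13.4, 11.4, 13.3 and 11.9 CPM in sgNTS replicates 1 to 4 (0.44 ± 0.08 (SE), adjusted p = 0.000682). Its SUM159PT values were 19.5, 17.2, 19.1 and 19.8 CPM in sgYES1 and 17.5, 16.4, 16.5 and 16.2 CPM in sgNTS replicates 1 to 4 (0.20 ± 0.08 (SE), adjusted p = 0.0502), and the difference between the lines was not called (-0.26 ± 0.11 (SE), adjusted p = 0.0969). DNAJC10, a disulfide reductase of ER-associated degradation, fell in SUM159PT, with 79.6, 69.6, 77.4 and 72.3 CPM in sgYES1 replicates 1 to 4, against 91.5, 90.9, 90.9 and 85.9 CPM in sgNTS replicates 1 to 4 (-0.25 ± 0.05 (SE), adjusted p = 0.000547). MDA-MB-231 had 142, 143, 135 and 129 CPM in sgYES1 replicates 1 to 4, against 139, 155, 149.6 and 147 CPM in sgNTS replicates 1 to 4, with overlapping groups (-0.11 ± 0.04 (SE), adjusted p = 0.0534). DNAJC3, which binds BiP clients, DNAJC1, a ribosome-associated ER membrane protein, and DNAJC16 were called in neither line, with log2 fold changes of 0.05, 0.11 and 0.01 in SUM159PT and 0.11, 0.10 and 0.12 in MDA-MB-231.

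Of the 4 ER members whose J domain faces the cytosol, DNAJB14 was the one called, in SUM159PT. DNAJB14, a membrane partner of HSC70 in ER-associated degradation, had 27.1, 24.9, 25.3 and 24.6 CPM in sgYES1 replicates 1 to 4, against 31.0, 29.6, 27.9 and 28.8 CPM in sgNTS replicates 1 to 4 of SUM159PT (-0.19 ± 0.07 (SE), adjusted p = 0.0258), with no overlap. That call was lost on library totals and when sgNTS replicate 1 or any of sgYES1 replicates 2 to 4 was left out (adjusted p 0.0534 to 0.0874). The MDA-MB-231 libraries gave 38.7, 36.9, 35.0 and 34.1 CPM in sgYES1 replicates 1 to 4, against 31.9, 36.1, 32.2 and 33.4 CPM in sgNTS replicates 1 to 4, with overlapping groups (0.11 ± 0.06 (SE), adjusted p = 0.134). Its relative DNAJB12 had log2 fold changes of 0.12 in SUM159PT and 0.03 in MDA-MB-231, DNAJC14 of 0.17 and 0.04, and DNAJC18 of -0.01 and 0.0011, and none of these was called.

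Nuclear members were not called higher in either line. DNAJC9, a histone H3-H4 chaperone, fell in MDA-MB-231, where it had 59.6, 59.1, 61.0 and 64.5 CPM in sgYES1 replicates 1 to 4, against 76.7, 73.3, 73.7 and 73.9 CPM in sgNTS replicates 1 to 4 (-0.29 ± 0.04 (SE), adjusted p = 7.34e-05). All sgYES1 libraries were below all sgNTS libraries. SUM159PT had 36.7, 41.1, 42.9 and 42.7 CPM in sgYES1 replicates 1 to 4, against 41.6, 39.5, 38.2 and 38.1 CPM in sgNTS replicates 1 to 4, with overlapping groups (0.06 ± 0.06 (SE), adjusted p = 0.462). DNAJC9 exons share 949 bases with FAM149B1 on the other strand and 20 with MRPS16 on the same strand. FAM149B1 had log2 fold changes of -0.19 in MDA-MB-231, the direction of DNAJC9 there, and -0.14 in SUM159PT. MRPS16 had 0.03 in MDA-MB-231 and -0.17 in SUM159PT. DNAJC21, which acts in maturation of the large ribosomal subunit, fell in SUM159PT, with 76.4, 67.6, 69.8 and 70.8 CPM in sgYES1 replicates 1 to 4, against 82.3, 89.6, 83.9 and 78.3 CPM in sgNTS replicates 1 to 4 (-0.22 ± 0.05 (SE), adjusted p = 0.00266). In MDA-MB-231 it had 73.7, 64.5, 66.5 and 71.7 CPM in sgYES1 replicates 1 to 4, against 71.2, 78.0, 71.2 and 75.8 CPM in sgNTS replicates 1 to 4 (-0.10 ± 0.05 (SE), adjusted p = 0.116).

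DNAJC17, a splicing-related member, had 20.8, 17.6, 19.3 and 21.5 CPM in sgYES1 replicates 1 to 4, against 22.8, 23.9, 21.0 and 24.7 CPM in sgNTS replicates 1 to 4 of SUM159PT, with overlapping groups (-0.21 ± 0.08 (SE), adjusted p = 0.0382). Its call was lost on library totals, with DESeq2, and when any of sgNTS replicates 1, 2 and 4 and sgYES1 replicates 2 and 3 was left out (adjusted p 0.0518 to 0.12). Its MDA-MB-231 values were 9.75, 8.79, 9.03 and 9.99 CPM in sgYES1 replicates 1 to 4, against 10.2, 11.5, 8.61 and 9.29 CPM in sgNTS replicates 1 to 4 (-0.08 ± 0.10 (SE), adjusted p = 0.556). Its exons share 1151 bases with GCHFR, 210 with C15orf62 and 110 with ZFYVE19, all on the other strand. GCHFR had 60 counts over the MDA-MB-231 and 104 over the SUM159PT libraries, and ZFYVE19 had 4359 and 4294. ZFYVE19 had log2 fold changes of 0.17 in MDA-MB-231 and 0.09 in SUM159PT. DNAJC8, another splicing-related member and one of the highest per length, was not called in either line (0.08 in SUM159PT and -0.01 in MDA-MB-231).

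Of the 5 mitochondrial members, DNAJC30 was called higher in both lines. DNAJC30, linked to respiratory chain assembly, had 9.53, 9.71, 9.99 and 11.5 CPM in sgYES1 replicates 1 to 4, against 8.79, 8.51, 8.95 and 6.17 CPM in sgNTS replicates 1 to 4 of MDA-MB-231 (0.34 ± 0.12 (SE), adjusted p = 0.0288). The sgNTS replicate 4 value lay below its group. The call in MDA-MB-231 was lost with the replicate block and when sgNTS replicate 4 or either of sgYES1 replicates 3 and 4 was left out (adjusted p 0.0516 to 0.103). The SUM159PT libraries gave 16.4, 17.0, 16.5 and 16.5 CPM in sgYES1 replicates 1 to 4, against 14.4, 10.1, 12.5 and 15.4 CPM in sgNTS replicates 1 to 4 (0.34 ± 0.10 (SE), adjusted p = 0.0104). Its exons share 359 bases with BUD23 on the other strand, which had log2 fold changes of 0.18 in MDA-MB-231 and -0.16 in SUM159PT.

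DNAJA3, the class A member of the mitochondrial matrix, fell in MDA-MB-231, where it had 75.8, 71.5, 81.0 and 72.1 CPM in sgYES1 replicates 1 to 4, against 90.1, 82.2, 87.3 and 84.5 CPM in sgNTS replicates 1 to 4 (-0.20 ± 0.05 (SE), adjusted p = 0.0039). In SUM159PT it had 232, 235, 237 and 243 CPM in sgYES1 replicates 1 to 4, against 238, 224, 230.5 and 238 CPM in sgNTS replicates 1 to 4, with overlapping groups (0.03 ± 0.04 (SE), adjusted p = 0.536). DNAJC11, found at the contact of the mitochondrial membranes, rose in SUM159PT (80.0 to 83.4 CPM in sgYES1 and 67.4 to 69.0 CPM in sgNTS libraries, 0.26 ± 0.05 (SE), adjusted p = 0.000131) and was not called in MDA-MB-231 (0.03 ± 0.05 (SE), adjusted p = 0.681). DNAJC11 exons share 1419 bases with THAP3 on the other strand, the longest overlap of a member, and THAP3 had log2 fold changes of -0.21 in SUM159PT and 0.35 in MDA-MB-231. The relatives of the import motor, DNAJC15 and DNAJC19, were called in neither line, with log2 fold changes of -0.02 and -0.08 in SUM159PT and -0.04 and 0.03 in MDA-MB-231.

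Among vesicle and endosome members, DNAJC6 fell in both lines. DNAJC6 is auxilin, which brings HSC70 to clathrin coats for their removal. MDA-MB-231 had 14.5, 12.05, 12.3 and 12.8 CPM in sgYES1 replicates 1 to 4, against 14.3, 16.1, 19.1 and 18.1 CPM in sgNTS replicates 1 to 4 (-0.39 ± 0.09 (SE), adjusted p = 0.00417), and the highest sgYES1 library reached into the range of the sgNTS libraries. Its SUM159PT values were 11.2, 9.75, 10.8 and 9.96 CPM in sgYES1 replicates 1 to 4, against 15.1, 11.97, 13.9 and 12.6 CPM in sgNTS replicates 1 to 4 (-0.34 ± 0.10 (SE), adjusted p = 0.0078), without overlap. DNAJC13, an endosomal protein, fell in SUM159PT, with 111, 109, 106 and 106 CPM in sgYES1 replicates 1 to 4, against 123, 125, 120.3 and 126 CPM in sgNTS replicates 1 to 4 (-0.18 ± 0.04 (SE), adjusted p = 0.00162). The MDA-MB-231 libraries gave 68.3, 63.6, 61.4 and 62.1 CPM in sgYES1 replicates 1 to 4, against 58.6, 62.5, 70.2 and 74.0 CPM in sgNTS replicates 1 to 4 (-0.06 ± 0.07 (SE), adjusted p = 0.5). DNAJC5, the cysteine-string protein of secretory vesicles, was called higher in SUM159PT (0.13 ± 0.04 (SE), adjusted p = 0.0239), a call lost without a filter on low counts and when replicate 2 or 3 of either guide was left out (adjusted p 0.0514 to 0.0754). It was not called in MDA-MB-231 (-0.05 ± 0.03 (SE), adjusted p = 0.267).

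Of the other members, DNAJC4 was called higher in MDA-MB-231 (18.7 to 20.8 CPM in sgYES1 and 16.2 to 18.2 CPM in sgNTS libraries, log2 fold change 0.22 ± 0.06 (SE), adjusted p = 0.012), and not in SUM159PT (-0.15 ± 0.12 (SE), adjusted p = 0.333). That call was lost without a filter on low counts and in the fit on all 16 libraries (adjusted p 0.0547 and 0.0593). DNAJC4 exons share 297 bases with NUDT22 on the same strand, which had log2 fold changes of -0.15 in SUM159PT and 0.15 in MDA-MB-231. For DNAJC4 the difference of the guide effect between lines was not called as reported and was called in 7 alternatives, at -0.47 to -0.36. DNAJC22 (0.26 in SUM159PT and -0.29 in MDA-MB-231) and DNAJC27 (0.07 in SUM159PT and 0.06 in MDA-MB-231) were called in neither. DNAJA4 and DNAJC28 passed the filter on low counts in MDA-MB-231 and not in SUM159PT, with log2 fold changes of -0.01 ± 0.24 (SE), adjusted p = 0.987 for DNAJA4 and 0.11 ± 0.29 (SE), adjusted p = 0.795 for DNAJC28. DNAJC12, a co-chaperone of aromatic amino acid hydroxylases, passed in SUM159PT and not in MDA-MB-231, and was not called (0.21 ± 0.10 (SE), adjusted p = 0.0941). DNAJB7, DNAJB8 and DNAJB13 passed in neither line, with at most 15 counts summed over the 4 libraries of a group.

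By class, the medians in SUM159PT were larger for class A and B than for class C. In SUM159PT 2 of 3 class A members tested were called higher and 0 lower (median log2 fold change 0.26), 6 of 9 class B members higher and 1 lower (median 0.33), and 4 of 25 class C members higher and 5 lower (median 0.06). In MDA-MB-231 0 of 4 class A members were called higher and 1 lower (median 0.01), 4 of 9 class B members higher and 1 lower (median 0.11), and 4 of 25 class C members higher and 2 lower (median 0.02). In SUM159PT the shares called higher were 66.7% of class A, 66.7% of class B and 16% of class C, against 19.6% of all genes. The shares called lower were 0%, 11.1% and 20%, against 19.7%. In MDA-MB-231 the shares called higher were 0%, 44.4% and 16%, against 20.8%, and those lower were 25%, 11.1% and 8%, against 22.1%. Class C thus lay near or under the shares of all genes in both lines. No test compared the classes, and class and compartment overlap.

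No test compared the compartments, and their counts are given as a description. Of 11 cytosolic members tested in SUM159PT, 7 were called higher and 0 lower (median 0.27), and of 11 ER members 2 were called higher and 2 lower (median 0.11). The cytosolic share called higher was 63.6%, against 19.6% of all genes, and the ER shares of 18.2% higher and 18.2% lower lay near the 19.6% and 19.7% of all genes. In MDA-MB-231, 3 of 11 cytosolic members were called higher and 1 lower (median 0.02), and 3 of 11 ER members higher and 0 lower (median 0.11). The 27.3% called higher in both lay near the 20.8% of all genes. The 3 ER members called higher in MDA-MB-231 and the 2 in SUM159PT were all among the 7 that face the lumen. In SUM159PT, 2 of 5 mitochondrial members were called higher (40%) and 0 lower, and 0 of 4 nuclear members higher and 2 lower (50%). Of 3 vesicle members there, 1 was called higher (33.3%) and 2 lower (66.7%). In MDA-MB-231, 1 of 5 mitochondrial members was called higher (20%) and 1 lower (20%). Nuclear members there had 0 of 4 higher and 1 lower (25%), and vesicle members 0 of 3 higher and 1 lower (33.3%). The mitochondrial shares and the nuclear share called lower in MDA-MB-231 lay near the 20.8% and 22.1% of all genes. Each of these sets holds few genes.

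Summed over members as CPM per kilobase of gene model, a sum that the most abundant members dominate, the cytosolic members had 201 ± 6.61 in sgYES1 and 133 ± 5.13 in sgNTS libraries of SUM159PT, and 262 ± 1.95 in sgYES1 and 255 ± 1.37 in sgNTS libraries of MDA-MB-231 (mean ± SD, n = 4 each). The ER members had 72.5 ± 1.78 in sgYES1 and 64.9 ± 1.46 in sgNTS libraries of SUM159PT, and 85.7 ± 1.20 in sgYES1 and 77.1 ± 1.38 in sgNTS libraries of MDA-MB-231. The ER sums thus lay apart by a like amount in both lines, while the cytosolic sums lay much further apart in SUM159PT. In bulk RNA, a lower level per cell and fewer cells with that level cannot be told apart. Class A summed to 139 ± 5.22 in sgYES1 and 98.8 ± 3.43 in sgNTS libraries of SUM159PT, class B to 101 ± 0.997 in sgYES1 and 70.5 ± 2.04 in sgNTS, and class C to 209 ± 2.43 in sgYES1 and 199.9 ± 2.45 in sgNTS. In MDA-MB-231 class A summed to 143 ± 0.886 in sgYES1 and 141 ± 1.17 in sgNTS libraries, class B to 148 ± 2.00 in sgYES1 and 141 ± 1.13 in sgNTS, and class C to 221 ± 1.83 in sgYES1 and 220.3 ± 2.81 in sgNTS.

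**Figure D3:**
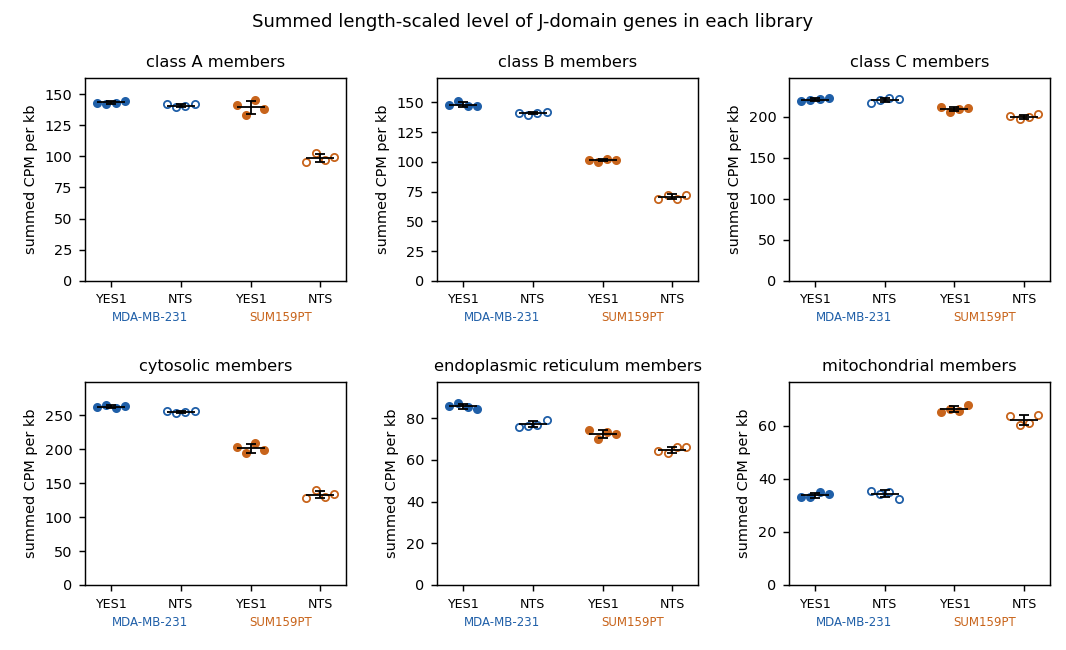
Summed CPM per kilobase of J-domain genes in each library, by class and for the cytosolic and ER members, with sgYES1 left of sgNTS and the mean and SD of 4 libraries. The cytosolic sum in SUM159PT averages 201 in sgYES1 and 133 in sgNTS libraries, and the ER sum 72.5 in sgYES1 and 64.9 in sgNTS libraries.

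The difference of the guide effect between the lines was tested directly, as the log2 fold change of sgYES1 over sgNTS in SUM159PT less the same fold change in MDA-MB-231, in 1 fit of all 16 libraries. Of 39 members tested, 10 were called with a positive difference, SUM159PT effect minus MDA-MB-231 effect, and 1 with a negative one, or 28.2% beside 24.5% of all 16640 genes. The share with a positive difference was 25.6%, against 12.7% of all genes, and that with a negative one 2.56%, against 11.9%. By class these were 3 of 4 class A members higher (75%), 4 of 9 class B members higher (44.4%) and 1 lower (11.1%), and 3 of 26 class C members higher (11.5%). By compartment they were 5 of 12 cytosolic members higher (41.7%) and, of 11 ER members, 1 higher and 1 lower (9.09% each). The shares higher of class C and of the ER members, and the share lower of the ER members, lay near those of all genes. Among the called members DNAJB1 had the largest difference (0.84 ± 0.06 (SE), adjusted p = 1.29e-10) and DNAJA1 the next (0.82 ± 0.07 (SE), adjusted p = 3.52e-09). Without the 2 control libraries that stood apart, an alternative chosen after seeing the data, they were 0.86 for DNAJB1 and 0.89 for DNAJA1.

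DNAJB9 differed by 0.46 ± 0.11 (SE), adjusted p = 0.00223, DNAJA2 by 0.23 ± 0.06 (SE), adjusted p = 0.00417 and DNAJC9 by 0.34 ± 0.07 (SE), adjusted p = 0.00135. For DNAJC9 and DNAJA3 the positive difference goes with a fall in MDA-MB-231 and no call in SUM159PT. DNAJB14 was the member with a negative difference (-0.32 ± 0.08 (SE), adjusted p = 0.00728), with effects of -0.19, called, in SUM159PT and 0.11, not called, in MDA-MB-231. The other calls were DNAJA3 (0.22), DNAJC11 (0.22), DNAJB6 (0.18), DNAJC5 (0.16) and DNAJB4 (0.32). DNAJB4 lost its call in 11 settings (adjusted p 0.0513 to 0.0839): library totals, the replicate block, the 2 control libraries left out together, and 8 single libraries left out, namely sgNTS replicates 1 and 4 and sgYES1 replicates 1 and 3 of MDA-MB-231 and sgNTS replicates 3 and 4 and sgYES1 replicates 1 and 3 of SUM159PT. DNAJC5 lost it in 2 settings, the replicate block and the control libraries left out together (adjusted p 0.0621 and 0.0797), and DNAJB6 without MDA-MB-231 sgYES1 replicate 1 (adjusted p 0.0571).

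Across the lines, 6 members were called higher in both: DNAJB2, DNAJB4, DNAJB9, DNAJB11, DNAJC2 and DNAJC30. The MDA-MB-231 call of DNAJC30 was lost in 4 settings, as given above. DNAJC6 was called lower in both, and DNAJB1 was the 1 member called in opposite directions, higher in SUM159PT and lower in MDA-MB-231, though its MDA-MB-231 call was lost in 7 settings. DNAJA1, DNAJA2, DNAJB6, DNAJC5 and DNAJC11 were called higher in SUM159PT and not called in MDA-MB-231, and each differed between the lines in the direct test. DNAJB14, DNAJC10, DNAJC13, DNAJC17 and DNAJC21 were called lower in SUM159PT and not called in MDA-MB-231, and of these DNAJB14 differed between the lines in the direct test. Some of these members lay near the threshold. In MDA-MB-231, DNAJC10 was called lower in 4 alternatives (adjusted p 0.0144 to 0.0482) and DNAJB6 higher in 2 (0.0062 to 0.0298). DNAJC25, called higher in MDA-MB-231, was called higher in SUM159PT too in 4 alternatives (0.028 to 0.047). Of the 36 members tested in both lines, 25 had a fold change of the same sign, with a Pearson correlation of 0.46 and a Spearman correlation of 0.50 across genes, which are not independent replicates. The 2 lines share no library.

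Without the YES1 guide the lines themselves differed in most J-domain genes, as in most genes. Between sgNTS libraries of SUM159PT and of MDA-MB-231, 11 of 39 members were called higher in SUM159PT and 21 lower, or 82.1% beside 81.8% of all 16640 genes. The members called lower were 53.8% against 41.3% of all genes and those called higher 28.2% against 40.5%, and the groups did not overlap for 31 members (79.5%), against 75.9% of all genes. This comparison uses the sgNTS libraries that also serve in the comparisons above. Class B members had 0 called higher and 8 lower of 9, class A 2 higher and 2 lower of 4, and class C 9 higher and 11 lower of 26. Cytosolic members had 3 of 12 higher and 8 lower, ER members 1 of 11 higher and 6 lower, and mitochondrial members 4 of 5 higher and 1 lower. The calls of DNAJB2, DNAJC21 and DNAJC28 were lost when 1 library was left out: MDA-MB-231 replicate 1 or SUM159PT replicate 4 for DNAJB2 (adjusted p 0.0523 and 0.0619), SUM159PT replicate 2 for DNAJC21 (0.0546) and SUM159PT replicate 3 or 4 for DNAJC28 (0.0525 and 0.0573).

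Levels per length ordered the members as follows in sgNTS libraries, with long gene models (21835 bases for DNAJC10 and 14981 for DNAJB6) lowering a gene's value. In SUM159PT the highest were DNAJA1 (43.1 ± 3.93 CPM per kilobase, SD, n = 4), DNAJC8 (35.1 ± 0.713), DNAJA3 (32.9 ± 0.967), DNAJC5 (31.5 ± 1.24), DNAJB1 (30.0 ± 1.81) and DNAJA2 (22.7 ± 0.563). The means of DNAJA3 and DNAJC5, and those of DNAJC5 and DNAJB1, lie closer than the sum of their SDs. In MDA-MB-231 the highest were DNAJA1 (112 ± 1.02), DNAJB1 (72.6 ± 1.01), DNAJC5 (54.3 ± 1.87), DNAJC8 (35.7 ± 0.664), DNAJB6 (23.8 ± 0.181) and DNAJC9 (18.8 ± 0.384), each apart from the next by more than their spread. DNAJA1 thus led in both lines.

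Between the control groups, the log2 difference of SUM159PT from MDA-MB-231 was -1.38 ± 0.05 (SE), adjusted p = 5.41e-19 for DNAJA1, -1.28 ± 0.04 (SE), adjusted p = 3.56e-20 for DNAJB1 and -2.20 ± 0.04 (SE), adjusted p = 1.77e-24 for DNAJB6, all lower in SUM159PT. DNAJB6 had 77.3, 78.3, 77.1 and 78.9 CPM in SUM159PT sgNTS replicates 1 to 4 and 358, 357, 353 and 359 CPM in MDA-MB-231 sgNTS replicates 1 to 4. The mitochondrial DNAJA3 was higher in SUM159PT (233 ± 6.84 CPM in SUM159PT and 86.0 ± 3.45 CPM in MDA-MB-231 sgNTS libraries, log2 difference 1.44 ± 0.04 (SE), adjusted p = 1.39e-20), as were DNAJC17 (1.22) and DNAJC13 (0.90). DNAJC12 had 620 counts over the SUM159PT sgNTS libraries and 4 over those of MDA-MB-231, a depth-scaled ratio of 195 (exact 95% interval 75.8 to 718, for counting error only). DNAJA4 (11 counts in SUM159PT and 85 in MDA-MB-231 sgNTS libraries) was lower in SUM159PT (-2.54), as were DNAJC22 (-1.50), DNAJC15 (-1.20) and DNAJC3 (-1.03). With sgYES1, the SUM159PT levels of DNAJA1 (215 ± 11.6 CPM) and DNAJB1 (185 ± 3.27 CPM) still lay under those of both MDA-MB-231 groups, where the lowest library had 303 CPM for DNAJA1 and 245 CPM for DNAJB1.

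**Figure D4:**
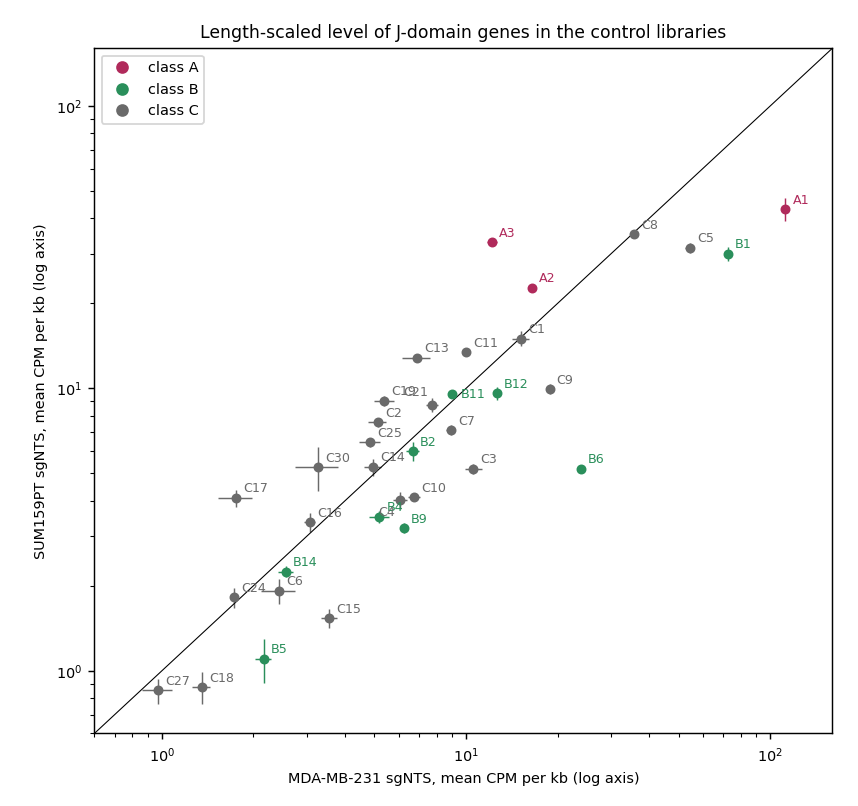
Mean CPM per kilobase of 35 J-domain genes in sgNTS libraries, MDA-MB-231 on the horizontal and SUM159PT on the vertical log axis, with bars for the SD of 4 libraries and a line of equal level. DNAJA1, DNAJB1 and DNAJB6 lie under the line and DNAJA3 above it, and DNAJA4, DNAJC12, DNAJC22 and DNAJC28 are outside the plotted range.

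Most HSP70 genes rose in SUM159PT. Of 10 HSP70 genes tested, 7 were called higher in SUM159PT and 1 lower (median log2 fold change 1.44, beside -0.01 over all genes). In MDA-MB-231, 6 were called higher and 1 lower (median 0.20, beside 0.01), and in the fit on all 16 libraries 4 were higher and 0 lower. The reported shares were 70% higher and 10% lower in SUM159PT, against 19.6% and 19.7% of all genes. In MDA-MB-231 they were 60% and 10%, against 20.8% and 22.1%. The 7 called higher in SUM159PT include HSPA1L, HSPA2 and HSPA6, which had at most 15 counts in any sgNTS library there. They averaged 0.279, 0.639 and 0.403 CPM in sgNTS and 0.941, 1.88 and 2.45 CPM in sgYES1 libraries of SUM159PT. The 70% and the median of 1.44 thus rest in part on genes with few counts. HSPA8, which encodes HSC70, had 1945, 1819.9, 1886 and 1837 CPM in sgYES1 replicates 1 to 4, against 561, 1093, 606 and 759 CPM in sgNTS replicates 1 to 4 of SUM159PT (1.32 ± 0.12 (SE), adjusted p = 3.9e-08). The sgNTS replicate 2 value was the highest of its group, and without that library the log2 fold change was 1.55. In MDA-MB-231 HSPA8 had 2056, 1967, 1947 and 1958 CPM in sgYES1 replicates 1 to 4, against 2169.8, 2222, 2231 and 2247 CPM in sgNTS replicates 1 to 4, lower under sgYES1 (-0.17 ± 0.03 (SE), adjusted p = 0.000702). The lower call of HSPA8 in MDA-MB-231 was lost in the fit on all 16 libraries (adjusted p = 0.272). HSPA8, like DNAJB1, was thus called higher in SUM159PT and lower in MDA-MB-231 as reported, and the difference between the lines was 1.47 ± 0.16 (SE), adjusted p = 2.83e-07.

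The heat-inducible HSP70 genes HSPA1A and HSPA1B are near-identical in sequence, so the split of reads between them is uncertain. HSPA1B had 130.2, 147, 158 and 142 CPM in sgYES1 replicates 1 to 4, against 20.6, 44.2, 17.1 and 24.1 CPM in sgNTS replicates 1 to 4 of SUM159PT (2.44 ± 0.16 (SE), adjusted p = 1.58e-10), and HSPA1A had 64.5, 61.9, 68.5 and 56.4 CPM in sgYES1 replicates 1 to 4, against 7.37, 21.7, 9.07 and 11.8 CPM in sgNTS replicates 1 to 4 (2.33 ± 0.17 (SE), adjusted p = 1.4e-09). Both were highest among controls in sgNTS replicate 2, and without it the log2 fold changes were 2.80 for HSPA1B and 2.72 for HSPA1A. In MDA-MB-231 HSPA1B rose by 0.26 and HSPA1A by 0.28 on the log2 scale. The highest fold change of the HSP70 list there was that of HSPA6 (1.06), with 18.0 ± 2.27 CPM in sgYES1 and 8.59 ± 0.589 CPM in sgNTS libraries. HSPA5, the BiP of the ER, with which DNAJB9 and DNAJB11 act, rose in SUM159PT (625 ± 28.7 CPM in sgYES1 and 464 ± 18.0 CPM in sgNTS libraries, 0.44 ± 0.04 (SE), adjusted p = 4.21e-08) and in MDA-MB-231 (1207 ± 38.1 CPM in sgYES1 and 1008 ± 16.003 CPM in sgNTS libraries, 0.26 ± 0.03 (SE), adjusted p = 2.27e-05). DNAJA1 was also highest among SUM159PT controls in sgNTS replicate 2, and without that library its log2 fold change was 0.94, with 0.78 for DNAJB1.

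**Figure D5:**
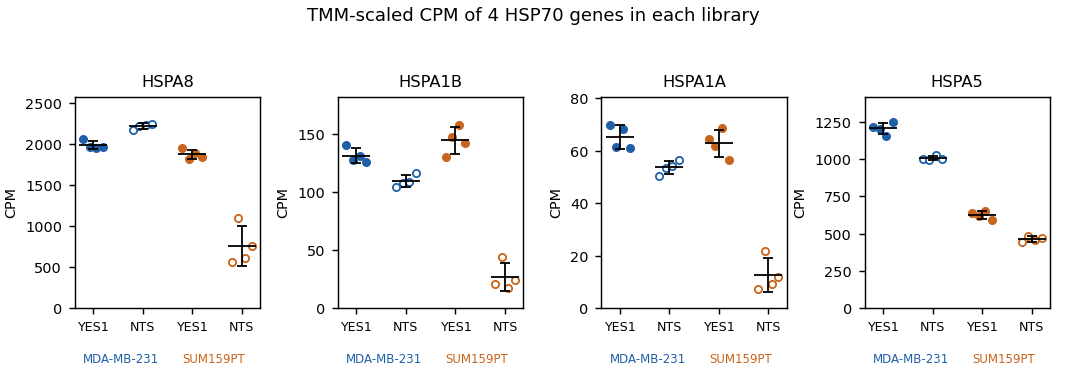
TMM-scaled CPM of HSPA8, HSPA1B, HSPA1A and HSPA5 in each library, sgYES1 (filled) left of sgNTS (open) in each line, with the mean and SD of 4 libraries. In SUM159PT the open point of sgNTS replicate 2 lies above its group for HSPA8 (1093 CPM), HSPA1B (44.2 CPM) and HSPA1A (21.7 CPM), and below all sgYES1 points.

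Nucleotide exchange factors rose in part in SUM159PT, with 6 of 13 called higher (46.2%, against 19.6% of all genes) and 1 lower (median -0.01). They included HSPH1 (0.40), BAG1 (0.35) and BAG3 (0.31), and the mitochondrial GRPEL2 fell (-0.61). GRPEL2 had 44.1, 38.5, 41.9 and 35.4 CPM in sgYES1 replicates 1 to 4, against 64.0, 48.2, 67.1 and 65.8 CPM in sgNTS replicates 1 to 4 of SUM159PT. The sgNTS replicate 2 value was the lowest of its group and nearest the sgYES1 values, and without that library the log2 fold change was -0.71. In MDA-MB-231, 2 were called higher and 3 lower (median -0.05), and these shares of 15.4% and 23.1% lay near the 20.8% and 22.1% of all genes. The 3 small lower calls there, BAG2, BAG3 and HSPA4L, were absent with DESeq2, on library totals and with the replicate block. None of the heat shock factors HSF1, HSF2 and HSF4 was called in either line by edgeR, with log2 fold changes of -0.01, -0.16 and -0.12 in SUM159PT and -0.00021, -0.19 and 0.28 in MDA-MB-231.

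Of 16 targets and sensors of the ER unfolded protein response, 4 were called higher and 6 lower in SUM159PT, and 6 higher and 3 lower in MDA-MB-231. The shares were 25% higher and 37.5% lower in SUM159PT, against 19.6% and 19.7% of all genes, and 37.5% higher and 18.8% lower in MDA-MB-231, against 20.8% and 22.1%. DDIT3, the stress-induced factor CHOP, fell in SUM159PT (16.8 ± 1.91 CPM in sgYES1 and 30.2 ± 7.52 CPM in sgNTS libraries, -0.83 ± 0.13 (SE), adjusted p = 3.4e-05) and rose in MDA-MB-231 (23.9 ± 1.74 CPM in sgYES1 and 12.6 ± 0.378 CPM in sgNTS libraries, 0.91 ± 0.07 (SE), adjusted p = 1.62e-07). XBP1 (-0.62) and HERPUD1 (-0.57) also fell in SUM159PT, while in MDA-MB-231 XBP1 (0.20), HERPUD1 (0.19) and ERN1, which encodes IRE1 (0.97), rose. Among SUM159PT controls the sgNTS replicate 2 values of DDIT3 (19.8 CPM), XBP1 (144 CPM) and HERPUD1 (65.3 CPM) were the lowest of their group and nearest the sgYES1 values, which reached 18.3, 126 and 56.7 CPM. Without that library the log2 fold changes were -0.98 for DDIT3, -0.72 for XBP1 and -0.67 for HERPUD1. ERN1 averaged 24.1 ± 0.344 CPM in sgYES1 and 31.0 ± 6.63 CPM in sgNTS libraries of SUM159PT. SDF2L1 had the highest fold change of the list in SUM159PT (0.30), with 61.7 ± 4.81 CPM in sgYES1 and 50.3 ± 2.71 CPM in sgNTS libraries. In MDA-MB-231 it had 35.2 ± 2.42 CPM in sgYES1 and 28.8 ± 2.23 CPM in sgNTS libraries. DNAJB9 and DNAJB11, unlike DDIT3, XBP1 and HERPUD1 but like HSPA5, were called higher in both lines. The list thus also holds a gene, SDF2L1, with higher means under sgYES1 in both lines. Of J-domain proteins outside the naming pattern, GAK (0.33), the relative of auxilin, and HSCB (0.33), the iron-sulfur co-chaperone, rose in MDA-MB-231, and in SUM159PT HSCB rose (0.41) and the ER protein SEC63 fell (-0.15). DNAJC5B and DNAJC5G did not pass the filter.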

How the data were processed

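Poly-A RNA of 16 libraries (4 per line and guide) was sequenced, and the deposited values are whole-number counts of reads per gene, made by the authors with HISAT2 2.0.5 and featureCounts 1.5.0-p3 on hg38, per the submitters' processing notes; strand setting and treatment of multi-mapped reads are not stated. The protocol in the labels covers directional and non-directional libraries. Of 58735 genes, 58724 have the start, end and strand of GENCODE 29. Counts in J-domain pseudogenes were few (at most 77 per line), and genes with such copies, DNAJA1, DNAJB1, DNAJB5, DNAJC8 and DNAJC19, are uncertain, to an extent these counts do not measure, since reads shared with a copy may have been dropped.

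From the counts, edgeR 4.0.16 in R 4.3.3 gave TMM factors, a filter (filterByExpr, minimum count 10, minimum total 15) and the quasi-likelihood F-test, two-sided, with Benjamini-Hochberg adjustment over all genes tested and calls under 0.05. Each line's guide effect was fitted on its own 8 libraries, and the difference between lines and the control contrast on all 16. The SE is the absolute log2 fold change over the square root of F. Displayed CPM and CPM per kilobase use TMM over all 16 libraries, with the deposited gene length for the per-kilobase values. The scripts were tested on simulated data. Intervals cover counting error only where stated, and p-values measure the spread between technical replicates.

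Members and lists were chosen with earlier results of these data known. Compartments come from textbook knowledge. Values per library are given for the 6 called members with the highest and the 6 with the lowest fold change in each line, at a mean of at least 5 CPM, and the 6 with the smallest p of the difference between lines. Of the other lists, up to 4 genes each with the smallest p in a line were named. BAG2, HSPA4L, HSPA1L, HSPA2, HSPA6 and SDF2L1 were named after their values were seen. Alternatives were library totals, RLE factors, no filter, a replicate block, DESeq2 1.42.0, a fit on all 16 libraries, each library left out, and, chosen after seeing the data, 2 control libraries left out together. Promoter windows are from RefSeq; protein sequences were not used here, and 1 gene of the lists is not reported here.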

Additional observations from a re-analysis of the deposited data

Results flagged for a closer look

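The effect of sgYES1 differed between the lines, by the direct test, for 11 members. As the log2 effect in SUM159PT less that in MDA-MB-231, the difference was 0.84 for DNAJB1, 0.82 for DNAJA1, 0.46 for DNAJB9, 0.34 for DNAJC9, 0.32 for DNAJB4, 0.23 for DNAJA2, 0.22 for DNAJA3, 0.22 for DNAJC11, 0.18 for DNAJB6 and 0.16 for DNAJC5, and it was -0.32 for DNAJB14. The calls of DNAJB4, DNAJB6 and DNAJC5 were lost in some alternatives, as given with their values above.

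In 4 of 150 groups of 4 libraries checked, 1 library lay far from the other 3, where chance gives about 1 in 20. DNAJC30 had 6.17 CPM in MDA-MB-231 sgNTS replicate 4, beside 8.51 to 8.95 CPM in the other 3 libraries. DNAJC22 had 4.87 CPM in MDA-MB-231 sgNTS replicate 3, beside 3.84 to 3.88 CPM. DNAJC10 had 85.9 CPM in SUM159PT sgNTS replicate 4, beside 90.9 to 91.5 CPM. DNAJC12 had 11.6 CPM in SUM159PT sgYES1 replicate 4, beside 10.48 to 10.55 CPM.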

How the results depend on the processing

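The counts of called members kept within 1.5 times the reported ones in every alternative run, except for members with a negative difference of the guide effect (SUM159PT minus MDA-MB-231), of which there was 1 as reported. There were 2 on library totals, with no filter on low counts, with DESeq2 and without both control libraries that stood apart, and 1 to 3 with a single library left out. With a single library left out, SUM159PT had 11 to 13 members called higher and 4 to 6 lower, MDA-MB-231 had 7 to 8 higher and 3 to 5 lower, the control groups differed in 10 to 11 higher and 19 to 21 lower, and 8 to 10 members had a positive difference of the guide effect. Library totals moved the share of higher calls over all genes in MDA-MB-231 to 59.8%, against 48.5% as reported, and called 12 members higher there and 3 lower, against 8 and 4. For the difference between lines, 51.7% of the calls over all genes were positive as reported. That share was 57.9% with RLE factors, 58.7% with DESeq2 and 51.6% to 64.3% with a single library left out. The replicate numbers did not pair the libraries, since the deviations of same-numbered libraries correlated at -0.08 to 0.03, and the replicate block gave 12 members higher and 6 lower in SUM159PT, 7 and 3 in MDA-MB-231, 8 and 1 for the difference between lines and 11 and 21 between the control groups. No called value changed sign; 30 of 153 results for single genes, none of them called as reported, changed sign in at least 1 alternative, at values of -0.06 to 0.14. The median over class A in MDA-MB-231, 0.01 as reported, was -0.05 without sgNTS replicate 2 and 0.05 on library totals. Depth limited DNAJA4, DNAJB7, DNAJB8, DNAJB13 and DNAJC28, and DNAJC12 in MDA-MB-231.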
